A study of Mus musculus with 8 samples.

Results

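The genes described here encode the enzymes and the activating protein that turn arachidonic acid into leukotrienes and prostaglandins, together with the phospholipases that feed the pathway or inactivate a related lipid. They are the 10 genes *Pla2g4a*, *Alox5*, *Alox5ap*, *Lta4h*, *Ltc4s*, *Alox15*, *Ptgs1*, *Ptgs2*, *Ptges* and *Pla2g7*, chosen by name, and all 10 symbols were found among the 54188 genes of the count table. RNA was sequenced from CD11b+Gr-1hi and CD11b+Gr-1lo myeloid cells of sanroque mice at 20 weeks of age, isolated by sorting from spleen (SP) or bone marrow (BM). Sanroque mice are homozygous for the san allele of *Roquin* (Roquin san/san) on C57BL/6 and develop a lupus-like autoimmune disease, and the labels give their sex as female. Each of the 4 groups had 2 libraries, which carry the numbers of the labels: 5 and 6 for SP Gr-1hi, 7 and 8 for SP Gr-1lo, 9 and 10 for BM Gr-1hi, and 11 and 12 for BM Gr-1lo. Both tissues came from mice of the same genotype, so every comparison is between tissues or subsets of sanroque mice and none is with wild-type cells.

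Leukotrienes and prostaglandins are made on demand from arachidonic acid that a phospholipase A2 cuts from membrane lipids. In the leukotriene branch, 5-lipoxygenase acts with its activating protein to make leukotriene A4. A hydrolase turns this into the neutrophil attractant leukotriene B4, and a synthase turns it into the cysteinyl leukotrienes. In the prostaglandin branch, the cyclooxygenases COX-1 and COX-2 make prostaglandin H2, from which terminal synthases make prostaglandin E2 and the other prostanoids. Neutrophils are known for leukotriene B4, and myeloid cells in general for inducible COX-2 and prostaglandin E2.

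The libraries followed their subset labels, but most did not follow the label of sex. *Ly6g*, which encodes the granulocyte antigen that the Gr-1 antibody binds, lay at 330 to 801 CPM (counts relative to the library total, scaled by TMM, the trimmed mean of M values) in the 4 Gr-1hi libraries and at 3.07 to 8.23 CPM in the 4 Gr-1lo libraries. *Csf1r*, the receptor for a monocyte growth factor, lay at 133 to 375 CPM in Gr-1hi and at 436 to 754 CPM in Gr-1lo libraries, and *Itgam*, which encodes CD11b, was at 734 CPM or more in each of the 8. *Xist*, the RNA of the inactive X chromosome, had 12032 counts in library 5 and 9898 in library 7 and at most 5 in each of the other 6. The Y-linked *Ddx3y* was at 0 in library 5 and at 33.7 to 82.6 CPM in the other 7. Only library 5 thus had the pattern of a female, and library 7 held both RNAs. The other 6, which include every BM library, had *Ddx3y* with almost no *Xist*. The sex pattern was therefore not balanced between SP and BM, and it differed between libraries 5 and 6 of SP Gr-1hi. Its part in the differences between tissues and between these 2 libraries was not tested. Total counts ranged from 33453580 to 68316154 per library. The 2 libraries of SP Gr-1hi differed more than the pairs of the other groups, their counts giving a chi-square of 66.7 for each degree of freedom against 18.9 to 21.3. Values without library 5, 6 or 7 are given where a result moved with them.

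The members spanned a wide range of levels, which are compared between genes in TPM, a share of the library that takes account of transcript length. *Alox5ap* was the highest member in each of the 8 libraries, with a mean of 1656 ± 30.6 TPM (SD, n = 2) in BM Gr-1hi and 878 ± 40.5 TPM in BM Gr-1lo. *Pla2g7* reached 654 ± 124 TPM in SP Gr-1hi, and *Alox5* reached 360 ± 21.9 TPM in BM Gr-1hi. *Lta4h* stayed between 106 and 183 TPM in all 8 libraries. *Ptgs1*, *Ptges* and *Pla2g4a* had group means between 3.46 and 32.3 TPM, and *Ptgs2* had group means from 3.65 to 56.9 TPM. *Alox15* and *Ltc4s* were the lowest, with group means of at most 4.55 and 0.855 TPM. *Alox5*, *Alox5ap* and *Lta4h* were thus at far higher RNA levels than *Ltc4s* in every group. This does not describe all later leukotriene enzymes. *Mgst2*, counted here among the later steps of leukotriene metabolism and not a member, had group means of 20.0 to 59.6 TPM.

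**Figure D1:**
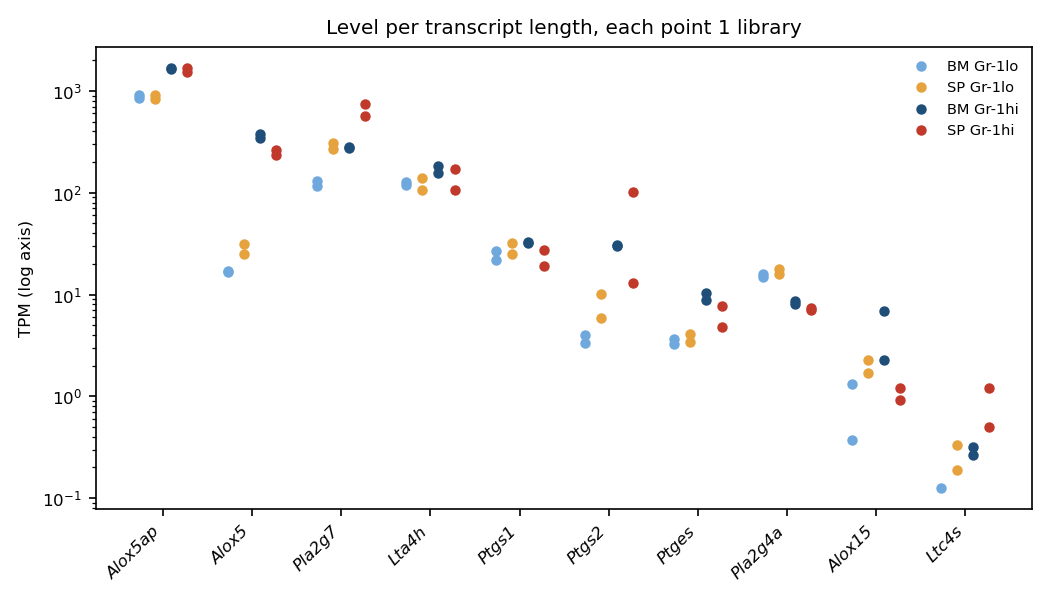
Level of each member in TPM on a log axis, with 1 point for each library and colours for the 4 groups (a value of 0 cannot be drawn, which leaves out *Ltc4s* in library 12). *Alox5ap* lies highest and *Ltc4s* lowest, and *Alox5* shows the widest gap between Gr-1hi and Gr-1lo libraries.

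Most members were higher in Gr-1hi than in Gr-1lo cells, and few differed by the full threshold between SP and BM. A gene was called in edgeR's quasi-likelihood test over 17650 genes where its adjusted p was 0.05 or less and its fold change (FC) was 2 or more, and 9 of the 10 members had enough counts to be tested. In BM, 8 of these 9 were called higher in Gr-1hi and 0 lower, against 24.2% and 33.1% of all genes tested. In SP, 5 of 9 were called higher and 0 lower, against 22.3% and 27.4% of all genes. Between SP and BM, 0 of 9 were called higher and 1 lower in Gr-1hi cells, where 14.0% and 1.48% of all genes were called, and 1 of 9 was called higher and 0 lower in Gr-1lo cells, where 3.84% and 0.215% were called. The difference between subsets in SP minus that in BM was above 0 and called for 0 members and below 0 and called for 2, against 7.74% and 2.00% of all genes. In each direction with 0 calls by edgeR, DESeq2 and limma also called 0, and an unadjusted p below 0.05 was seen for 1 member higher in SP Gr-1hi (*Pla2g7*), 1 lower in Gr-1hi in SP (*Pla2g4a*) and 0 in the others. The median log2 FC of the tested members was 2.07 in BM and 1.31 in SP between subsets, where the median of all genes was -0.17 and -0.09. Between tissues it was -0.54 in Gr-1hi and 0.28 in Gr-1lo cells, where the median of all genes was 0.03 and -0.01. In bulk RNA, fewer cells of a type and less RNA per cell cannot be told apart.

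The size of the subset differences depends on the scaling. The TMM factors were 0.724 to 0.863 in Gr-1hi and 1.26 to 1.30 in Gr-1lo libraries, so that division by library totals alone, tried after these factors had been seen, moved the median of all genes between subsets to -0.99 in BM and -0.69 in SP. With that scaling 21.8% of the genes called between subsets in BM and 24.9% of those in SP were higher in Gr-1hi, against 42.3% and 44.8% with TMM. The members called higher in Gr-1hi then numbered 5 in BM and 3 in SP, and 1 member was called lower in SP. Of all genes tested, 13.2% were then called higher and 47.3% lower in BM, and 13.4% and 40.3% in SP.

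**Figure D2:**
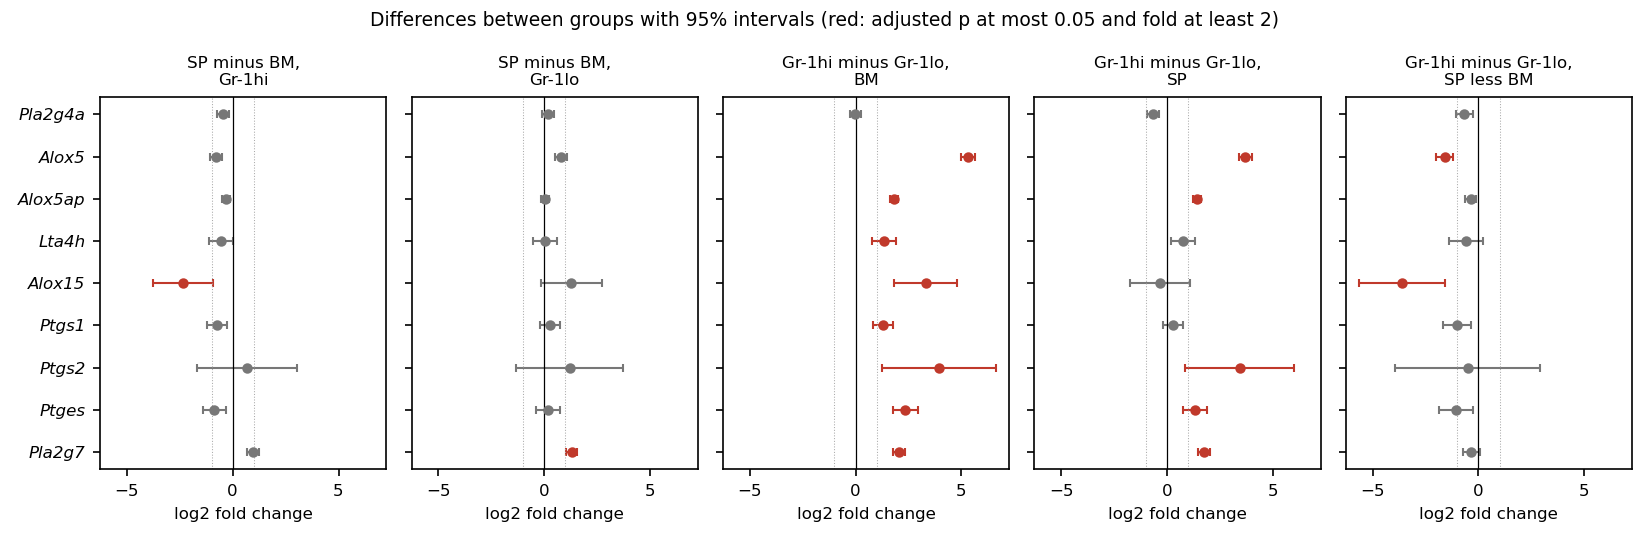
Log2 FC of the 9 tested members in the 5 comparisons, with 95% intervals as bars. Red points passed an adjusted p of 0.05 and a 2-fold change, and the dotted lines mark that fold. The points of *Alox5* lie farthest to the right in both panels that compare subsets, and the bars of *Ptgs2* are the widest.

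*Pla2g4a* (ENSMUSG00000056220, GRCm38 chr1:149829618-149961290, minus strand) encodes cytosolic phospholipase A2, which releases arachidonic acid at the start of the pathway, and it was not higher in Gr-1hi than in Gr-1lo cells in either tissue. Its level was 21.3 and 24.6 CPM in SP Gr-1hi, 33.8 and 39.5 in SP Gr-1lo, 30.2 and 33.7 in BM Gr-1hi, and 30.8 and 33.4 in BM Gr-1lo. Both SP Gr-1hi libraries lay below the other 6. In BM the subsets differed by a log2 FC of -0.01 (SE 0.12, adjusted p = 0.953, 95% interval -0.29 to 0.27), and the sign of this value changed with the scaling. In SP the Gr-1hi cells were lower (log2 FC -0.68, SE 0.12, adjusted p = 0.00103), short of a 2-fold change, and with library totals alone this became -1.28 on the log2 scale. Gr-1hi cells of SP were 1.39-fold below those of BM (adjusted p = 0.0186), and the log2 FC was -0.36 without libraries 5 and 7 (adjusted p = 0.117). The difference between subsets was lower in SP than in BM by 0.67 on the log2 scale (log2 difference -0.67, SE 0.17, adjusted p = 0.0342), also short of 2-fold, and this had an adjusted p of 0.0890 without libraries 5 and 7.

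*Alox5* (ENSMUSG00000025701, GRCm38 chr6:116410077-116461178, minus strand) encodes 5-lipoxygenase, the first enzyme of leukotriene synthesis, and its difference between subsets was the largest among the 9 tested members in both tissues. It was at 460 and 564 CPM in SP Gr-1hi, 42.7 and 35.8 in SP Gr-1lo, 899 and 868 in BM Gr-1hi, and 21.8 and 23.1 in BM Gr-1lo. The 4 groups did not overlap, in the order BM Gr-1hi, SP Gr-1hi, SP Gr-1lo and BM Gr-1lo. Gr-1hi cells were 39.3-fold higher in BM (log2 FC 5.30, SE 0.15, adjusted p = 8.23e-08). In SP they were 13.1-fold higher (log2 FC 3.71, SE 0.14, adjusted p = 3.51e-07). Between tissues *Alox5* differed in opposite directions in the 2 subsets. It was 1.73-fold lower in SP than in BM in Gr-1hi cells (log2 FC -0.79, SE 0.12, adjusted p = 0.00239) and 1.74-fold higher in SP in Gr-1lo cells (0.80, SE 0.13, adjusted p = 0.00759), neither reaching 2-fold. The interaction of tissue and subset tests this directly and was -1.59 (SE 0.18, adjusted p = 0.00248), that is, the subset difference was 3.01-fold smaller in SP. It stayed called in each of the 15 alternatives at this threshold, at -1.84 to -1.29, and was -1.29 without libraries 5 and 7.

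The summed level of neutrophil markers had the same order of groups as *Alox5*, though not every marker did. The summed level of the 9 neutrophil markers examined, all of them found, was 46381 and 67208 CPM in SP Gr-1hi, 6262 and 6109 in SP Gr-1lo, 88619 and 92802 in BM Gr-1hi, and 2625 and 2484 in BM Gr-1lo, with none of the 9 at 0 in any library. *Csf3r*, the receptor for a granulocyte growth factor, went the other way in Gr-1hi cells, at 9073 and 6879 CPM in SP and 4973 and 3830 in BM, and *Cxcr2*, a chemokine receptor, overlapped there at 2760 and 2269 CPM in SP and 2525 and 2300 in BM. In Gr-1lo cells *Retnlg* was lower in SP (7.91 and 14.9 CPM) than in BM (17.3 and 32.1), *Mmp8* overlapped (308 and 237 against 358 and 289), and so did *Mmp9* (24.7 and 28.3 against 24.7 and 53.3). *Ngp* and *Ltf*, 2 of the 9 markers, made up much of the summed level. They were at 26964 and 19965 CPM in library 9 and at 3229 and 1314 CPM in library 7. *Ly6g* itself had an interaction of -1.59 (SE 0.42, adjusted p = 0.0456). The part of these markers in the values of *Alox5* was not tested.

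The RefSeq promoter of *Alox5* is shown because this gene had the largest subset difference in the fit of all 8 libraries. It covers the 250 bases before the start site, chr6:116461179-116461428 on the minus strand of GRCm38.p6, with the letters of the PU.1 core GAGGAA and of the Sp1 core GGGCGG in capitals. PU.1 is a transcription factor of the myeloid lineage, and Sp1 binds GC boxes.

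Alox5: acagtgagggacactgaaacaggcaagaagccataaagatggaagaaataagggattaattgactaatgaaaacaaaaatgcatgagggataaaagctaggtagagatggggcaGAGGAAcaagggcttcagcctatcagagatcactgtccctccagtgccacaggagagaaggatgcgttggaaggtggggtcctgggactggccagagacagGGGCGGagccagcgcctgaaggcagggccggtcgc

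A GAGGAA lay 136 bases and a GGGCGG 35 bases before the start site, without overlap. Searched on both strands, GAGGAA occurred in 23.3% and GGGCGG in 32.7% of the 32851 promoters of the same length, and in 5 and 4 of the 8 members that had an entry. *Alox5ap* and *Alox15* had none and were not searched. A match of letters describes the sequence and shows no binding.

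*Alox5ap* (ENSMUSG00000060063, GRCm38 chr5:149264767-149288153, plus strand) encodes the 5-lipoxygenase activating protein, which presents arachidonic acid to the enzyme. It lay at 1129 and 1119 CPM in SP Gr-1hi, 429 and 408 in SP Gr-1lo, 1388 and 1422 in BM Gr-1hi, and 414 and 395 in BM Gr-1lo. The Gr-1lo groups overlapped, and the Gr-1hi groups stood above them. Gr-1hi cells were 3.47-fold higher in BM (log2 FC 1.80, SE 0.08, adjusted p = 3.32e-07). The same contrast gave 2.69-fold in SP (log2 FC 1.43, SE 0.08, adjusted p = 1.94e-06). With library totals alone these log2 values were 0.98 and 0.82, below 2-fold, and with limma on quantile-normalized TPM the value in SP was 0.74, also below it. SP Gr-1hi was 1.25-fold below BM Gr-1hi (adjusted p = 0.0172), with a log2 FC of -0.31 without libraries 5 and 7 (adjusted p = 0.0966), and the Gr-1lo groups differed by 0.05 on the log2 scale (95% interval -0.14 to 0.23, adjusted p = 0.786). The interaction was -0.37 (SE 0.12, adjusted p = 0.0616). The ratio of *Alox5* to *Alox5ap*, in TPM within a library, was 0.141 and 0.174 in SP Gr-1hi, 0.211 and 0.224 in BM Gr-1hi, 0.0303 and 0.0344 in SP Gr-1lo, and 0.0182 and 0.0202 in BM Gr-1lo. These ratios do not depend on the scaling between libraries, and the RNA of the enzyme thus varied far more than that of its activating protein. An antisense gene shares 189 exonic bases with *Alox5ap* and had 1310 counts over the 8 libraries against 240774 for *Alox5ap*.

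*Lta4h* (ENSMUSG00000015889, GRCm38 chr10:93453411-93484875, plus strand) encodes leukotriene A4 hydrolase, which makes leukotriene B4. It was at 310 and 538 CPM in SP Gr-1hi, 283 and 224 in SP Gr-1lo, 549 and 683 in BM Gr-1hi, and 251 and 237 in BM Gr-1lo. Library 5 lay close to the Gr-1lo libraries, and library 6 close to BM Gr-1hi. *Lta4h* was called in BM (2.52-fold higher in Gr-1hi, log2 SE 0.25, adjusted p = 0.00142), but the log2 FC was 0.52 with library totals alone (adjusted p = 0.0668) and 0.88 with limma (adjusted p = 0.0205). In SP it was 1.67-fold higher in Gr-1hi (adjusted p = 0.0261), short of 2-fold, and without library 5 it was 1.06 on the log2 scale (adjusted p = 5.48e-04). It was not called between tissues in either subset (Gr-1hi log2 FC -0.54, adjusted p = 0.127; Gr-1lo 0.06, adjusted p = 0.927), but the value in Gr-1hi cells was -1.07 without library 6 (adjusted p = 0.00229), -0.27 without library 5 (adjusted p = 0.278) and -0.18 without libraries 5 and 7 (adjusted p = 0.449).

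*Ltc4s* (ENSMUSG00000020377, GRCm38 chr11:50236461-50238616, minus strand) encodes leukotriene C4 synthase, which makes the first cysteinyl leukotriene, and it had too few counts to be tested. It had 8 and 20 counts in SP Gr-1hi, 3 and 10 in SP Gr-1lo, 5 and 4 in BM Gr-1hi, and 2 and 0 in BM Gr-1lo, 52 in all. The levels were 0.241 and 0.638 CPM in SP Gr-1hi and at most 0.187 in each of the other 6 libraries. A count of 0 in library 12 allows up to 3 counts, or 0.0567 CPM. An antisense gene that shares 268 exonic bases had 19 counts in all, so that these few reads are uncertain. Basophil and mast cell markers, whose cells are known for this enzyme, summed to 19.1 and 14.6 CPM in SP Gr-1hi, 5.85 and 4.41 in SP Gr-1lo, 47.2 and 34.9 in BM Gr-1hi, and 6.56 and 7.54 in BM Gr-1lo over the 8 genes listed, of which *Tpsb2* was at 0 in 6 libraries. Their part was not tested.

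*Alox15* (ENSMUSG00000018924, GRCm38 chr11:70344152-70352031, minus strand) encodes a lipoxygenase that oxygenates arachidonic acid at other carbons than *Alox5*, and in the mouse it is known from eosinophils and resident macrophages. It was low, at 1.08 and 1.53 CPM in SP Gr-1hi, 1.86 and 1.43 in SP Gr-1lo, 9.76 and 3.43 in BM Gr-1hi, and 1.04 and 0.302 in BM Gr-1lo. Only the BM Gr-1hi libraries exceeded 2 CPM, and they differed 2.85-fold from each other. Gr-1hi cells were 9.87-fold higher than Gr-1lo in BM (log2 FC 3.30, SE 0.64, adjusted p = 0.00157), a call that held in all 16 alternatives at this threshold. In SP the log2 FC was -0.32 (95% interval -1.74 to 1.10, adjusted p = 0.659). SP Gr-1hi was 5.05-fold below BM Gr-1hi (log2 FC -2.34, SE 0.61, adjusted p = 0.0212), the 1 member called between tissues in that subset, and the interaction was -3.62 (SE 0.88, adjusted p = 0.0300). Both of these calls were lost when single libraries were left out. The tissue difference was -2.20 on the log2 scale without library 5 (adjusted p = 0.136), -2.69 without library 6 (adjusted p = 0.0668) and -1.46 without library 9 (adjusted p = 0.115). The interaction was -3.99 to -2.76, with an adjusted p of 0.0570 to 0.108, without any 1 of libraries 5, 6, 7, 8, 9 or 12. Without libraries 5 and 7 the tissue difference was -2.10 (adjusted p = 0.264) and the interaction -3.18 (adjusted p = 0.287).

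Of the 8 eosinophil markers, the granule genes *Epx*, *Prg2*, *Ear1*, *Ear2* and *Ear6* were highest in library 9, as was *Alox15*, and the surface genes *Siglecf*, *Ccr3* and *Il5ra* were highest in library 5. *Epx*, the eosinophil peroxidase, was at 3.93 and 0.743 CPM in BM Gr-1hi, 0.121 and 0.415 in SP Gr-1hi, 1.20 and 0.904 in SP Gr-1lo, and 0.881 and 0.113 in BM Gr-1lo. *Prg2*, the major basic protein, was at 17.3 and 5.49 CPM in BM Gr-1hi and at 1.19 to 6.90 CPM in the other 6. *Siglecf* went the other way between tissues, at 35.4 and 25.2 CPM in SP Gr-1hi and 14.8 and 11.7 in BM Gr-1hi, and *Ccr3* and *Il5ra* were also higher in both SP Gr-1hi than in both BM Gr-1hi libraries. The 8 eosinophil markers summed to 85.5 and 53.0 CPM in BM Gr-1hi, 57.1 and 62.4 in SP Gr-1hi, 44.1 and 42.1 in SP Gr-1lo, and 36.3 and 24.9 in BM Gr-1lo, with none of the 8 at 0. *Epx* and *Prg2* were singled out of this list after their values had been seen, and the part of eosinophils in the result was not tested.

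*Ptgs1* (ENSMUSG00000047250, GRCm38 chr2:36230426-36252272, plus strand) encodes COX-1, the constitutive cyclooxygenase, and *Ptgs2* (ENSMUSG00000032487, GRCm38 chr1:150100031-150108227, plus strand) encodes COX-2, the inducible one. *Ptgs1* was at 35.2 and 55.1 CPM in SP Gr-1hi, 41.3 and 33.2 in SP Gr-1lo, 72.3 and 77.7 in BM Gr-1hi, and 33.7 and 27.6 in BM Gr-1lo. BM Gr-1hi stood above the other 3 groups, and the subsets of SP overlapped. *Ptgs1* was 2.45-fold higher in Gr-1hi in BM (log2 FC 1.29, SE 0.21, adjusted p = 5.64e-04), which was 0.48 with library totals alone (adjusted p = 0.0578). In SP it differed by a log2 FC of 0.28 (95% interval -0.20 to 0.76, adjusted p = 0.258), and this sign turned to -0.33 with library totals alone. SP Gr-1hi was 1.66-fold below BM Gr-1hi (log2 FC -0.73, SE 0.21, adjusted p = 0.0286), short of 2-fold. This was -1.17 without library 6 (adjusted p = 0.00129), -0.52 without library 5 (adjusted p = 0.0547) and -0.43 without libraries 5 and 7 (adjusted p = 0.0831). The interaction of -1.01 (SE 0.29) narrowly missed with an adjusted p of 0.0519. It was -1.03 with RLE scaling (adjusted p = 0.0411) and -1.46 without library 6 (adjusted p = 0.00249), both called, but -0.82 without library 5 (adjusted p = 0.0409) and -0.54 without libraries 5 and 7 (adjusted p = 0.164). In Gr-1lo cells the tissues differed by 0.28 on the log2 scale (adjusted p = 0.500). An overlapping gene on the other strand had 12 counts in all against 14639 for *Ptgs1*.

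*Ptgs2* was at 28.2 and 240 CPM in SP Gr-1hi, 8.86 and 15.9 in SP Gr-1lo, 79.4 and 86.4 in BM Gr-1hi, and 5.88 and 4.97 in BM Gr-1lo. The SP Gr-1hi libraries differed 8.49-fold, with library 5 below and library 6 above both BM Gr-1hi libraries. Each Gr-1hi library stood above every Gr-1lo library. Gr-1hi cells were 15.3-fold higher in BM (log2 FC 3.93, SE 1.06, adjusted p = 0.0189). The corresponding value in SP was 10.7-fold (log2 FC 3.42, SE 1.02, adjusted p = 0.0281). These calls are not firm, since the adjusted p was up to 0.115 in BM without library 11 or 12, and up to 0.151 in SP without library 7, 8, 11 or 12. In SP the log2 FC was 1.15 without library 6 (adjusted p = 0.0199), against 4.23 without library 5 (adjusted p = 1.14e-04). In Gr-1hi cells the log2 FC between tissues was 0.69 (SE 0.93, adjusted p = 0.607, 95% interval -1.67 to 3.05). It was -1.63 without library 6 (adjusted p = 0.0133) and 1.45 without library 5 (adjusted p = 0.0258), so the direction rests on which library represents SP. In Gr-1lo cells it was 1.20 (SE 0.99, adjusted p = 0.569), with both SP libraries above both BM libraries. It was 1.54 without libraries 5 and 7, where library 8 alone stands for SP Gr-1lo. The interaction was -0.51 (SE 1.35, adjusted p = 0.833).

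The balance of the cyclooxygenases differed between the subsets within each tissue. The ratio of *Ptgs2* to *Ptgs1* in TPM was 0.681 and 3.69 in SP Gr-1hi, 0.931 and 0.944 in BM Gr-1hi, 0.182 and 0.406 in SP Gr-1lo, and 0.148 and 0.153 in BM Gr-1lo. COX-2 RNA was therefore near the level of COX-1 RNA in BM Gr-1hi, well below it in all 4 Gr-1lo libraries, and above it in library 6 alone.

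The promoters of the cyclooxygenase genes are shown as a pair because their RNAs differed so much in their spread. They cover the 250 bases before the RefSeq start sites in GRCm38.p6, chr2:36230176-36230425 on the plus strand and chr1:150099781-150100030 on the plus strand. Capitals mark GAGGAA and GGGCGG as before, and the C/EBP core TTGCNNAA, the site of a family of factors active in myeloid cells.

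Ptgs1: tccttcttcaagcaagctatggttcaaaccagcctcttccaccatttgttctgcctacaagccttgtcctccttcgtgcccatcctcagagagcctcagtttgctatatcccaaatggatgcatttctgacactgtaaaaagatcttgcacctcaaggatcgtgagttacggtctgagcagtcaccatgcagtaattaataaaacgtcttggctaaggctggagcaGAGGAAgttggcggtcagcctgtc

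Ptgs2: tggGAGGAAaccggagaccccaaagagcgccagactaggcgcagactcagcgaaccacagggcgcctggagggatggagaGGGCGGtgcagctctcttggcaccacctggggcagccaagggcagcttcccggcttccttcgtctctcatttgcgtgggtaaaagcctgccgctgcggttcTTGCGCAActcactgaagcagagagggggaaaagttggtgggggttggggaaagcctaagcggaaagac

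*Ptgs1* held a GAGGAA 24 bases before its start site and neither of the other motifs. *Ptgs2* held a GAGGAA at 247 bases, a GGGCGG at 170 bases and a TTGCNNAA at 69 bases before the start site, the last read on both strands as 1 site, with no overlap between motifs. TTGCNNAA occurred in 9.6% of all promoters and in 1 of the 8 members with an entry. The TATA box letters TATAAA, present in 12.4% of all promoters on either strand, were in neither.

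*Ptges* (ENSMUSG00000050737, GRCm38 chr2:30889471-30929863, minus strand) encodes microsomal prostaglandin E synthase, the inducible enzyme that acts after COX-2. It was at 9.07 and 15.8 CPM in SP Gr-1hi, 5.40 and 4.66 in SP Gr-1lo, 20.1 and 25.0 in BM Gr-1hi, and 4.59 and 4.23 in BM Gr-1lo. All Gr-1hi libraries lay above all Gr-1lo libraries, and BM Gr-1hi above SP Gr-1hi. The subset difference was 5.11-fold in BM (log2 FC 2.35, SE 0.26, adjusted p = 3.98e-05). It was 2.47-fold in SP (log2 FC 1.31, SE 0.25, adjusted p = 0.00151), where the log2 FC was 0.83 without library 6 and 0.70 with library totals alone. SP Gr-1hi was 1.82-fold below BM Gr-1hi (log2 FC -0.86, SE 0.24, adjusted p = 0.0267), short of 2-fold, and the value was -1.39 without library 6 (adjusted p = 8.21e-04), -0.59 without library 5 (adjusted p = 0.0422) and -0.50 without libraries 5 and 7 (adjusted p = 0.112). The interaction was -1.05 (SE 0.35, adjusted p = 0.0776), and in Gr-1lo cells the tissues differed by 0.19 (adjusted p = 0.734).

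*Pla2g7* (ENSMUSG00000023913, GRCm38 chr17:43568098-43612201, plus strand) encodes the secreted hydrolase of platelet-activating factor, a lipid mediator that is made beside the eicosanoids and it was higher in SP than in BM in both subsets. It was at 1031 and 854 CPM in SP Gr-1hi, 261 and 306 in SP Gr-1lo, 475 and 495 in BM Gr-1hi, and 121 and 110 in BM Gr-1lo. The 4 groups did not overlap. In Gr-1lo cells it was 2.45-fold higher in SP (log2 FC 1.30, SE 0.12, adjusted p = 7.27e-04), called in each of the 16 alternatives at this threshold. In Gr-1hi cells it was 1.94-fold higher in SP (0.96, SE 0.12, adjusted p = 9.51e-04), just short of 2-fold, and passed with upper-quartile scaling at 1.04, without library 6 at 1.01 and with library totals alone at 1.17. It was also 4.20-fold higher in Gr-1hi than in Gr-1lo in BM (log2 FC 2.07, SE 0.13, adjusted p = 1.07e-06). In SP this difference was 3.32-fold (log2 FC 1.73, SE 0.12, adjusted p = 4.73e-06). The interaction was -0.34 (95% interval -0.73 to 0.05, adjusted p = 0.212). An antisense gene that shares 319 exonic bases had 444 counts against 136182 for *Pla2g7*. Splenic macrophage markers, 8 genes, summed to 125 and 124 CPM in SP Gr-1hi, 58.0 and 43.6 in BM Gr-1hi, 96.3 and 104 in SP Gr-1lo, and 73.2 and 58.7 in BM Gr-1lo, with 1 of the 8 at 0 in libraries 10, 11 and 12. Markers of other cells also moved with tissue in both subsets. The 8 B cell markers summed to 501 and 339 CPM in SP Gr-1hi, 17.8 and 14.3 in BM Gr-1hi, 62.5 and 78.8 in SP Gr-1lo, and 7.85 and 9.69 in BM Gr-1lo. The 7 erythroid markers summed to 119 and 409, 20.6 and 24.3, 92.9 and 129, and 4.38 and 4.55 CPM in the same order of groups. The sums of the plasma cell, T cell, NK cell and dendritic cell markers were likewise higher in both SP libraries than in both BM libraries of either subset, the T cell markers at 92.9 and 58.2 CPM in SP Gr-1hi and 9.68 and 6.52 in BM Gr-1hi. The part of these cells in the tissue differences of *Pla2g7* and the other members was not tested.

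**Figure D3:**
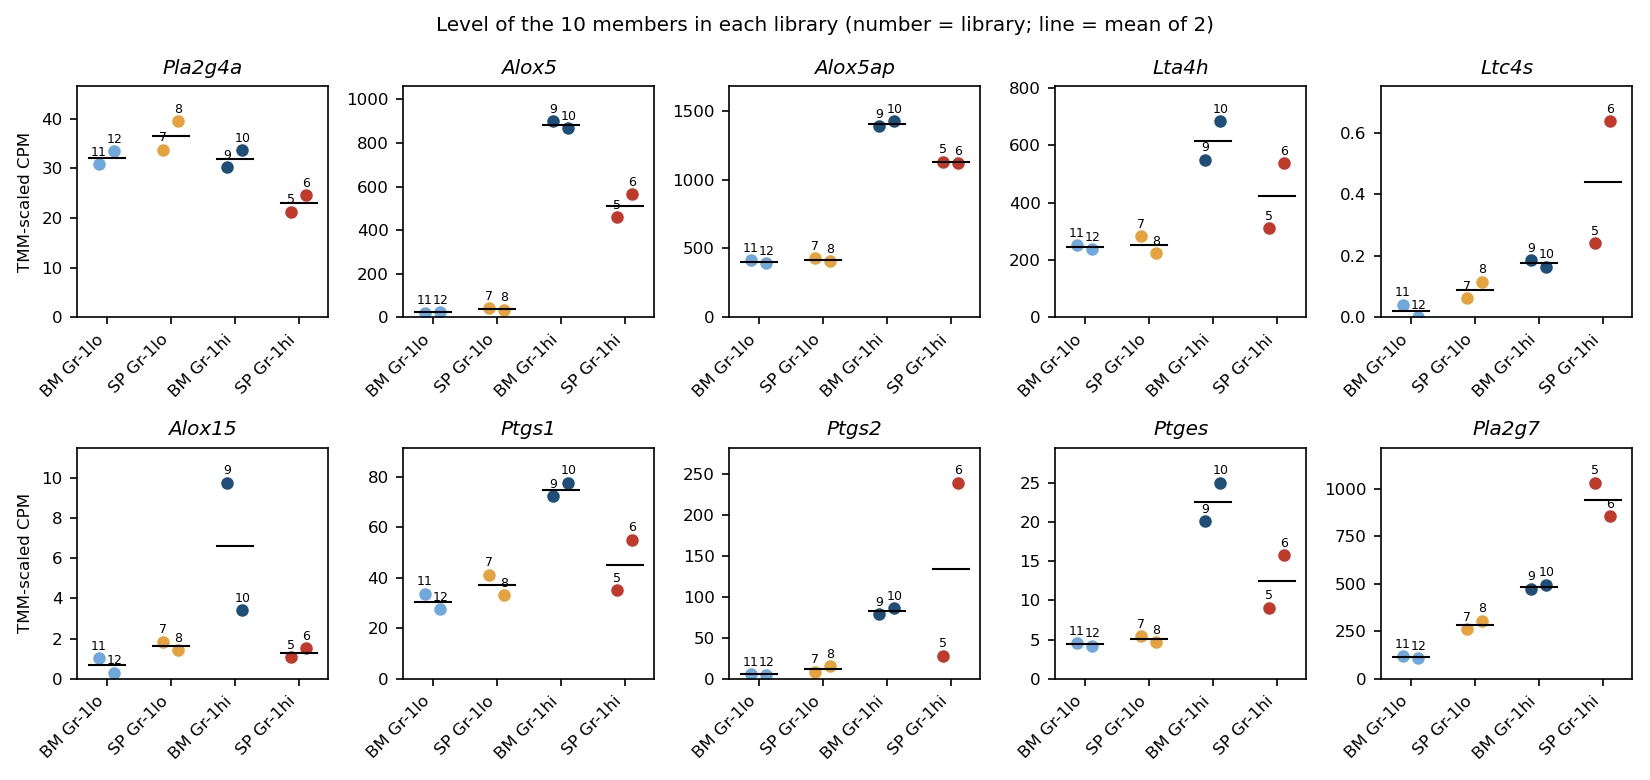
TMM-scaled CPM of the 10 members, with 1 panel for each gene, 1 point for each library (its number beside it) and a line at the mean of the 2 libraries of a group. The axes start at 0 and differ between panels. *Ptgs2* in library 6 (240 CPM) and *Alox15* in library 9 (9.76 CPM) stand apart from the other library of their group.

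Library 6 was above library 5 for 8 of the 10 members, by 1.16-fold for *Pla2g4a* up to 8.49-fold for *Ptgs2*. The exceptions were *Alox5ap* and *Pla2g7*. Without library 6, the members called lower in SP Gr-1hi than in BM Gr-1hi numbered 5, and without library 5 they numbered 0. The share of all genes tested that was called lower moved the same way, from 1.48% with all libraries to 4.80% without library 6 and 0.745% without library 5. *Alox5*, *Lta4h*, *Ptgs1*, *Ptgs2* and *Ptges* were the 5.

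Of 66 other genes of the pathway, all in the table, 50 had enough counts to be tested. Between subsets in BM 17 were called higher in Gr-1hi and 18 lower, where all genes gave 24.2% and 33.1%. In SP 16 were called higher and 12 lower, where all genes gave 22.3% and 27.4%. The median log2 FC of the 50 was 0.27 in BM and 0.05 in SP. Between tissues 13 were called higher in SP and 1 lower in Gr-1hi cells (14.0% and 1.48% of all genes), and 2 higher and 0 lower in Gr-1lo cells (3.84% and 0.215%). The interaction was called above 0 for 7 and below 0 for 2 (7.74% and 2.00%). Fewer of them were called higher in SP Gr-1hi cells without library 5, and fewer without library 10. The share of all genes tested that was called higher there was also smaller in both fits.

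Downstream of leukotriene A4, the enzymes that trim cysteinyl leukotrienes diverged. *Ggt1*, a gamma-glutamyl transferase that turns leukotriene C4 into D4, was at 85.5 and 34.8 CPM in SP Gr-1hi, 61.5 and 80.5 in BM Gr-1hi, and at most 1.08 in the 4 Gr-1lo libraries. Its log2 FC between subsets was 6.50 (SE 0.55, adjusted p = 4.22e-05) in BM. It was 5.91 in SP (SE 0.52, adjusted p = 6.99e-05). *Ggt5*, a transferase of the same kind, was at 132 to 167 CPM in the Gr-1hi and 3.06 to 6.31 in the Gr-1lo libraries, with a log2 FC of 5.39 in BM (adjusted p = 1.91e-07) and 4.76 in SP (adjusted p = 6.08e-07). In contrast *Dpep2*, a dipeptidase that turns leukotriene D4 into E4, was at 1.16 to 3.83 CPM in the Gr-1hi and 17.8 to 47.2 in the Gr-1lo libraries (log2 FC -4.53 in BM, adjusted p = 1.32e-04; -3.67 in SP, adjusted p = 2.53e-04). *Cysltr1*, a receptor for cysteinyl leukotrienes, was likewise at 0.673 to 1.15 CPM in the Gr-1hi and 21.4 to 28.3 in the Gr-1lo libraries (-5.06 in BM, adjusted p = 2.23e-07; -4.51 in SP, adjusted p = 6.29e-07). *Mgst3*, a microsomal glutathione transferase, was at 0.0603 to 0.372 CPM in the Gr-1hi and 6.56 to 8.77 in the Gr-1lo libraries (-4.72 in BM, adjusted p = 4.51e-06; -5.30 in SP, adjusted p = 5.56e-06). *Mgst2*, of the same family, went the other way, at 70.9 to 138 CPM in the Gr-1hi and 22.7 to 28.1 in the Gr-1lo libraries. Its log2 FC was 2.46 in BM (adjusted p = 1.42e-06) and 1.70 in SP (adjusted p = 1.58e-05). *Mgst1* was at 292 to 533 CPM in the Gr-1hi and 186 to 234 in the Gr-1lo libraries. Its log2 FC was 1.24 in BM (adjusted p = 3.98e-05) and 0.72 in SP, short of 2-fold. Of the 8 tested genes of later leukotriene and epoxide metabolism, 5 were called higher and 3 lower in Gr-1hi in BM, and 4 and 2 in SP.

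Of 11 receptors tested, 6 were called higher and 1 lower in Gr-1hi in BM, and 6 and 1 in SP. Of 6 genes of breakdown and transport, 1 was called higher and 4 lower in BM, and 0 and 4 in SP. The shares over all genes were 24.2% higher and 33.1% lower in BM, and 22.3% and 27.4% in SP, and these small groups were not tested against them. Between tissues, 3 genes met the rule for naming in Gr-1hi cells. *Pla2g15*, a lysosomal phospholipase, was at 40.6 and 20.7 CPM in SP and 9.79 and 9.95 in BM (3.10-fold, log2 SE 0.27, adjusted p = 0.00376). *Akr1b3*, an aldose reductase that also makes prostaglandin F2 alpha, was at 15.8 and 12.0 CPM in SP and 3.89 and 5.33 in BM (3.03-fold, log2 SE 0.18, adjusted p = 4.99e-04). *Hpgd*, the dehydrogenase that inactivates prostaglandin E2, was at 6.12 and 5.01 CPM in SP and 1.46 and 2.48 in BM (2.85-fold, log2 SE 0.23, adjusted p = 0.00228). *Akr1b3* and *Hpgd* were higher in the Gr-1lo libraries, at 61.9 to 76.8 and 12.7 to 17.7 CPM. In Gr-1lo cells no gene called between tissues reached the 5 CPM of the rule.

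**Figure D4:**
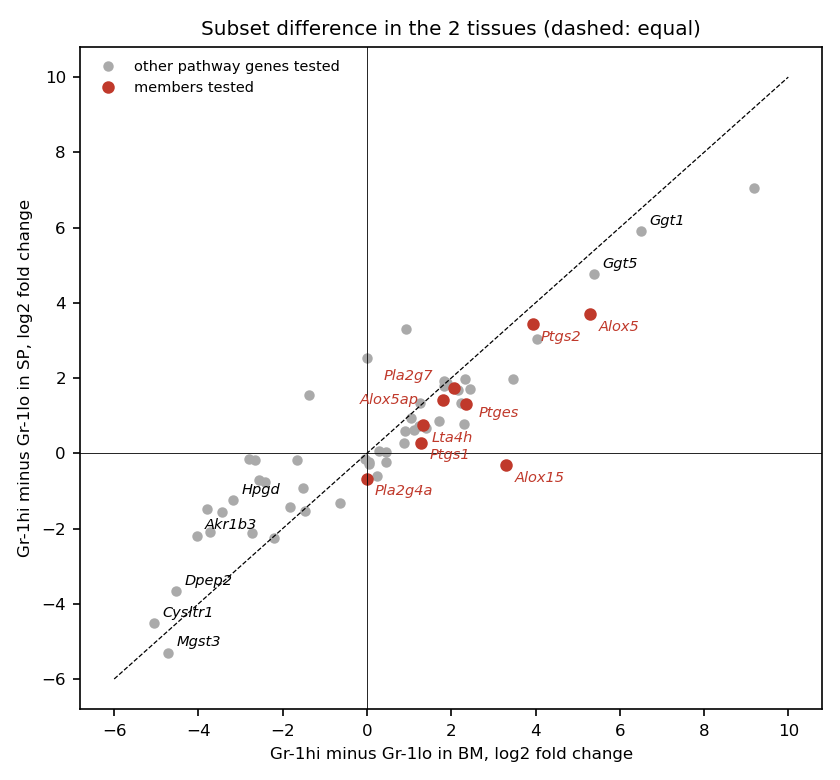
Log2 FC of Gr-1hi against Gr-1lo cells in BM (x axis) and in SP (y axis), for the 9 tested members (red) and the 50 other pathway genes tested (grey). The dashed line marks equal values. *Alox5* (5.30 and 3.71) and *Alox15* (3.30 and -0.32) lie below the line, and their interactions were called.

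The members varied together to different degrees over the 8 libraries, which is given as a description because the libraries share 4 groups. Pearson's r of log2 CPM was highest between *Alox5* and *Alox5ap* (0.99), *Lta4h* and *Ptges* (0.98), *Lta4h* and *Ptgs1* (0.96), and *Alox5* and *Ptges* (0.96). It was lowest between *Pla2g4a* and *Pla2g7* (-0.64), *Alox5ap* (-0.55) and *Alox5* (-0.52). Among 8596 genes with a mean of at least 10 CPM, those most like *Alox5* were *Pglyrp1*, a bactericidal granule protein of neutrophils, *Actn1* and *Arid3b*, with r of at least 0.9995. *Ptgs1* was most like *Ube3a*, *Ero1l* and *Olr1* (r of 0.987 to 0.988). *Ptgs2* was most like *Ccnl1*, *Eif4a2* and *Nfkbiz* (r of 0.973 to 0.986), and *Nfkbiz*, an inducible regulator of NF-kB, was at 282 CPM in library 5 and 622 in library 6.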

How the data were processed

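Per the labels, total RNA of sorted cells was made into stranded mRNA libraries and sequenced as paired reads, and the submitters' processing notes name FastQC, STAR and featureCounts and the build GRCm38. The authors deposited raw read counts per gene, without normalization. For this work edgeR 4.0.16 was run in R 4.3.3 on those counts (filterByExpr, TMM scaling, 1 term per group over the 8 libraries, quasi-likelihood test with robust dispersion and 4 residual degrees of freedom, Benjamini-Hochberg adjustment over 17650 genes). CPM are TMM-scaled. TPM use exon lengths of GENCODE M21, an earlier release than the one the authors used on the same build. Calls needed an adjusted p no higher than 0.05 and an FC no lower than 2. SE is the log2 FC divided by the square root of the F statistic.

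The study's methods call the 2 libraries of a group independent biological replicates. The labels do not tie libraries to mice, and p-values measure the spread between these libraries. Counting precision was set by 33453580 to 68316154 counts per library, and 3 counts equal 0.0348 to 0.124 CPM, which covers counting error only. The members, the lists of pathway genes and of cell type markers and the tests were chosen with earlier results of these data known. All members are named, and of the other pathway genes the 5 called genes with the largest log2 FC in a comparison of 2 groups among those with at least 5 CPM in both libraries of the higher group and no overlap. *Mgst1* and *Mgst2* were added beside *Mgst3* outside this rule. The 3 genes most like *Alox5*, *Ptgs1* and *Ptgs2* were taken by Pearson's r. The deposited table is named as stranded counts, and the strand setting of featureCounts is not otherwise given in the sources used here, so antisense partners are named. Alternatives were RLE, upper-quartile and library-total scaling, DESeq2 1.42.0, no filter, a fit of the 4 libraries compared, limma 3.58.1 on log2(quantile-normalized TPM + 1), a stricter threshold, and leaving out libraries. The procedure was tested on simulated data.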

Additional observations from a re-analysis of the deposited data

Results flagged for a closer look

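The difference of *Alox5* between Gr-1hi and Gr-1lo cells was smaller in SP than in BM, with an interaction of -1.59 on the log2 scale (SE 0.18, edgeR adjusted p = 0.00248). It is flagged because the same contrast differed between the tissues by a test of that difference. The difference of *Alox15* between the subsets also differed between the tissues, with an interaction of -3.62 (SE 0.88, edgeR adjusted p = 0.0300), and this call was lost without library 5, 6, 7, 8, 9 or 12, where the adjusted p was 0.0570 to 0.108.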

How the results depend on the processing

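The study calls the BM cells autologous, that is, from the same animals as the SP cells. The sex pattern differs from this for library 5, which had 12032 counts of *Xist* and 0 of *Ddx3y*. Libraries 9 to 12 of BM had 1725 to 2783 counts of *Ddx3y* and at most 5 of *Xist*. By this pattern library 5 and the BM libraries did not come from the same animals. No number is shared by any pair of groups, so the labels do not say which libraries belong together. No paired analysis was therefore possible, and the libraries were treated as independent. Of 711 recomputed log2 FCs of members, 639 kept their direction and their side of the threshold, among them those of *Alox5* between subsets and in the interaction, 24 passed and 27 missed the threshold against the reported call, and 21 changed sign. The cause of these changes was not tested. Depth limits *Ltc4s*, and the fits without a library of a pair assume that the other varies as the remaining groups do.

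Members called higher in SP Gr-1hi than in BM Gr-1hi numbered 1 in place of 0 with upper-quartile scaling and with library totals alone. These settings called 15.1% and 17.2% of all genes tested higher. Those called lower numbered 0 with the stricter threshold (adjusted p below 0.01 and FC above 8), for which no share over all genes is at hand. In Gr-1lo cells, 2 were higher in SP with no filter (2.97% of all genes) and 0 with the stricter threshold, and the number also rose without libraries 5 and 7. Between subsets, library totals alone gave 5 higher in BM (13.2% of all genes), and 3 higher (13.4%) and 1 lower (40.3%) in SP. The stricter threshold gave 2 higher in BM and 1 in SP. Members with a called interaction below 0 numbered 4 with DESeq2 (2.60% of all genes), 4 with no filter (1.52%) and 0 with the stricter threshold. Leaving out single libraries, or libraries 5 and 7, also moved the number of members called between tissues in Gr-1hi cells and in the interaction. The shares over all genes moved in these fits as well.

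Signs turned mostly near 0. For *Pla2g4a* between subsets in BM, the log2 FC was 0.141 with RLE scaling and with DESeq2, 0.032 with upper-quartile scaling, 0.234 with limma, 0.053 in the fit of 4 libraries, and -0.094 to 0.123 without single libraries. Between SP and BM Gr-1lo cells, *Alox5ap* was at -0.0087 with RLE scaling and with DESeq2, and *Lta4h* was at -8.37e-04 with RLE scaling, -7.34e-04 with DESeq2, -0.13 without libraries 5 and 7 and -0.12 to 0.22 without single libraries. In SP between subsets, *Ptgs1* was at -0.33 with library totals alone and -0.10 to 0.54 without single libraries, and *Alox15* was at 0.081 without libraries 5 and 7. *Ptgs2* ran from -1.63 to 1.45 in Gr-1hi cells between tissues and from -2.85 to 0.23 in the interaction without single libraries, and its interaction was 0.0035 without libraries 5 and 7.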
